A study of Mus musculus with 4 samples.

Results

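The genes described here are the platelet-derived growth factor (PDGF) family of mouse skin: the ligand genes Pdgfa, Pdgfb, Pdgfc and Pdgfd, the receptor genes Pdgfra and Pdgfrb, and the receptor-like gene Pdgfrl. They were taken by gene symbol, and all 7 were found among the 32285 genes counted in each of 4 libraries. The mice were wild type, of the inbred strain C57BL/6 and 8 weeks old, and the tissue was back skin. Skin of 2 mice was unwounded, and skin of 2 other mice carried a full-thickness excisional wound and was taken 1 day after wounding. Each mouse gave 1 single-nucleus RNA library, in which a barcode marks the nucleus and a unique molecular identifier (UMI) marks each captured RNA molecule. All 4 mice shared genotype, strain, age and body site, and no transgene or drug was named.

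PDGF ligands are secreted as dimers that bring together 2 receptor chains and so switch on their kinase domains. PDGF-A and PDGF-B are cut inside the cell before release, whereas PDGF-C and PDGF-D are secreted with a CUB domain that extracellular proteases must remove. PDGF-A and PDGF-C act mainly through the alpha receptor, PDGF-B through both receptors, and PDGF-D mainly through the beta receptor. In skin the alpha receptor is a standard marker of dermal fibroblasts, the beta receptor is found on fibroblasts, pericytes and vascular smooth muscle, and PDGF from platelets is among the early growth factors of a wound.

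The RefSeq promoter table (GRCm38.p6) held 4 of the 7 members: Pdgfa, Pdgfc, Pdgfd and Pdgfra. The 250 bases before the RefSeq start are printed for the 3 of them whose summed counts separated the groups most clearly, at chr9:6168236-6168485, chr5:75152001-75152250 and chr3:81036166-81036415, all on the plus strand, with capitals marking a match to 1 of 4 motifs searched on both strands.
Pdgfd: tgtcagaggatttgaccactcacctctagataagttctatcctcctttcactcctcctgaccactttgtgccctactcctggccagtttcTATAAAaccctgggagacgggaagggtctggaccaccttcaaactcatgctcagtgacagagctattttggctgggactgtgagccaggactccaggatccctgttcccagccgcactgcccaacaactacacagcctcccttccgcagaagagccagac
Pdgfra: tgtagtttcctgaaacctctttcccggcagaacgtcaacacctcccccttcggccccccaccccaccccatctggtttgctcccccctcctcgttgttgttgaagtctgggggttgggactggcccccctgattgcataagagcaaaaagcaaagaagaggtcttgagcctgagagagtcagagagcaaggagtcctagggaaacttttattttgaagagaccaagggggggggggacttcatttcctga
Pdgfc: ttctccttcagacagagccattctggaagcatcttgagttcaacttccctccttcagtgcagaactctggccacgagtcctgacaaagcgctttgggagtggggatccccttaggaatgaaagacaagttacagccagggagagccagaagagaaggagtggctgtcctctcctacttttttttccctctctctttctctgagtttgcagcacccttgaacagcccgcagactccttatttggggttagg
Pdgfd held 1 match to the TATA box letters TATAAA, which 12.4% of the 32851 promoter windows of this length held. The windows of Pdgfra and Pdgfc held none of the 4 letter strings. The others were the CCAAT box, present in 33.8% of all windows, the GC box letters GGGCGG, present in 32.7%, and the AP-1 letters TGACTCA, present in 4.46%. No match overlapped a match to another of these motifs. Pdgfa had 2 RefSeq starts, with 1 GC box match before the start nearer to the end of the gene and 2 before the other. As 2 of the 3 printed windows held no match, none of these motifs could be shared by all 3. A link between the motifs and the differences between groups was not tested.

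After filtering, 6575 and 9001 nuclei were kept from the unwounded and 2297 and 3706 from the wounded libraries, holding 8267811, 6460733, 1182709 and 1355002 UMIs. The wounded libraries stood apart: Malat1, a nuclear-retained RNA, made up 9.39% and 8.26% of UMIs in unwounded but 0.120% and 0.295% in wounded skin. The density of UMIs, in counts per 1000000 UMIs (CPM) and kb of gene, over 1466 olfactory and vomeronasal receptor genes, which serve the nose and should be silent in skin, was 0.00732 and 0.0104 CPM per kb in both unwounded mice and reached 0.550 and 0.508 CPM per kb after wounding. At that density the lengths of all genes together would account for 68.4% and 63.2% of the UMIs of the wounded libraries, against 0.911% and 1.29% in the unwounded. Levels of the PDGF genes in wounded skin are therefore set beside a length-expected level, the CPM expected from its span alone at this density. For 1948 genes of at least 5 kb that did not exceed the receptor-gene density in either unwounded mouse, the median wounded level was 0.965 and 0.960 times the length-expected level. The top percentile of these silent genes began at 3.52 and 4.15 times. Between 10 and 58 barcodes were shared by any pair of libraries. The defining markers of most skin cell types could be used to name groups of nuclei in unwounded skin, but in wounded skin only fibroblast-like, keratinocyte-like and skeletal muscle-like nuclei could be named, and 1779 and 2633 nuclei stayed unnamed.

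In GENCODE vM21 (GRCm38), Pdgfa lies on chromosome 5 from 138976014 to 138997370 (minus strand), Pdgfb on chromosome 15 from 79995874 to 80014977 (minus strand) and Pdgfc on chromosome 3 from 81036416 to 81214040 (plus strand). Pdgfd lies on chromosome 9 from 6168584 to 6378850, Pdgfra on chromosome 5 from 75152292 to 75198215, Pdgfrb on chromosome 18 from 61045150 to 61085061 and Pdgfrl on chromosome 8 from 40926212 to 40990785, each on the plus strand. Nuclear RNA holds introns, so the span of a gene matters for its count: Pdgfd spans 210 kb and Pdgfc 178 kb, against 64.6 kb for Pdgfrl, 45.9 kb for Pdgfra, 39.9 kb for Pdgfrb, 21.4 kb for Pdgfa and 19.1 kb for Pdgfb. Levels are therefore compared between genes only as CPM per kb of gene. Ratios of the UMIs of a pair of genes, which are not corrected for length, are used only to compare classes or groups of mice.

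In unwounded skin Pdgfrb had the highest level per length of the family, with 4.99 and 5.23 CPM per kb over all nuclei. Pdgfd followed with 2.83 and 3.03 CPM per kb, Pdgfra with 2.58 and 2.32, and Pdgfrl with 2.24 and 2.28. The means of Pdgfra and Pdgfrl, 2.45 ± 0.19 and 2.26 ± 0.03 CPM per kb (SD, n = 2 mice), differed by about the spread between mice. The other 3 ligands were lower and overlapped one another: Pdgfc had 0.746 and 0.551 CPM per kb, Pdgfa 0.532 and 0.660, and Pdgfb 0.551 and 0.421.

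Among the ligands of unwounded skin, Pdgfb, whose protein recruits pericytes to vessels, was highest in blood endothelial-like nuclei. There it reached 86.0 and 99.2 CPM, from 8 and 12 UMIs in 84 and 134 nuclei, against 1.43 and 3.86 CPM in fibroblast-like nuclei. Skeletal muscle-like nuclei came next among classes of more than 100 nuclei in both mice, with 50.1 and 26.5 CPM. The exact 95% Poisson intervals of blood endothelial-like nuclei (37.1 to 170 and 51.3 to 173 CPM, counting error only) overlapped those of muscle-like nuclei in unwounded replicate 1 (34.5 to 70.4) and lay above them in replicate 2 (12.7 to 48.8). Adipocyte-like and dermal papilla-like nuclei held 0 Pdgfb UMIs in both mice. In adipocyte-like nuclei 3 counts would be 15.4 and 20.6 CPM, and the Poisson intervals reach 19.0 and 25.4 CPM.

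Pdgfa, the alpha receptor ligand known in skin from epidermis and hair follicle, was spread thinly. Skeletal muscle-like nuclei held 39.5 and 53.0 CPM from 26 and 20 UMIs. Pericyte and smooth muscle-like nuclei read higher, at 65.8 and 195 CPM, but from only 2 and 4 UMIs in 32 and 23 nuclei. An unnamed cluster with 7 of 10 keratinocyte markers, led by Grip1, Tgm5 and Pdzrn4, held 100.3 and 73.8 CPM from 9 and 5 UMIs. It was left unnamed because Dct, a melanocyte marker, was among its 10 leading genes and no keratinocyte marker was. Fibroblast-like nuclei held 4.08 and 6.43 CPM, from 20 UMIs in each mouse.

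Pdgfc, the other alpha receptor ligand, was highest in macrophage and monocyte-like nuclei, with 362 and 202 CPM from 120 and 68 UMIs. Skeletal muscle-like nuclei held 278 and 204 CPM, within the same range. Both classes lay above fibroblast-like nuclei, at 131 and 106 CPM, and above keratinocyte-like nuclei, at 72.2 and 44.7 CPM. The Poisson intervals of macrophage-like nuclei, 300.5 to 433 and 157 to 256 CPM, did not overlap those of fibroblast-like nuclei, 121 to 141 and 94.9 to 118 CPM.

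Pdgfd, the beta receptor ligand, had its highest levels in blood endothelial-like nuclei, at 1086 and 942 CPM, and in fibroblast-like nuclei, at 832 and 952 CPM. The order of these 2 classes was not the same in both mice. Of the other named classes with at least 50 nuclei in each mouse, lymphatic endothelial-like nuclei had the highest single value, 404 CPM, and skeletal muscle-like nuclei were lowest at 53.2 and 63.6 CPM. Whether the reading in other classes came from free RNA was not tested. The ratio of Pdgfd to Pdgfra UMIs was 4.96 and 6.37 in fibroblast-like nuclei and 7.75 and 5.94 in keratinocyte-like nuclei, which should lack fibroblast transcripts, and summed fibroblast markers reached 5136 and 7217 CPM in those keratinocyte-like nuclei. In blood endothelial-like nuclei the same ratio was 101 and 10.4, from 1 and 11 Pdgfra UMIs.

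The receptors followed the mesenchymal classes. Pdgfra was highest in fibroblast-like nuclei, at 168 and 149 CPM, and in dermal papilla-like nuclei, the signalling centre of the hair follicle, at 153 and 153 CPM. These classes did not differ beyond their spread. Pdgfrb was highest in pericyte and smooth muscle-like nuclei, at 888 and 389 CPM from 27 and 8 UMIs, and next in fibroblast-like nuclei, at 277 and 289 CPM. Those pericyte and smooth muscle-like nuclei held 1 Pdgfra UMI in each mouse, a Pdgfrb to Pdgfra ratio of 27.0 and 8.00, against 1.65 and 1.94 in fibroblast-like nuclei.

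Pdgfrl encodes a secreted protein that resembles the ligand-binding part of the receptors and has no kinase domain. It was highest in fibroblast-like nuclei, with 215 and 225 CPM. Pericyte and smooth muscle-like nuclei held 0 Pdgfrl UMIs in both mice. There 3 counts would be 98.7 and 146 CPM, and the Poisson intervals reach 121 and 180 CPM. Dermal papilla-like nuclei differed between the mice, with 11.8 CPM from 1 UMI and 170 CPM from 10 UMIs.

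**Figure D1:**
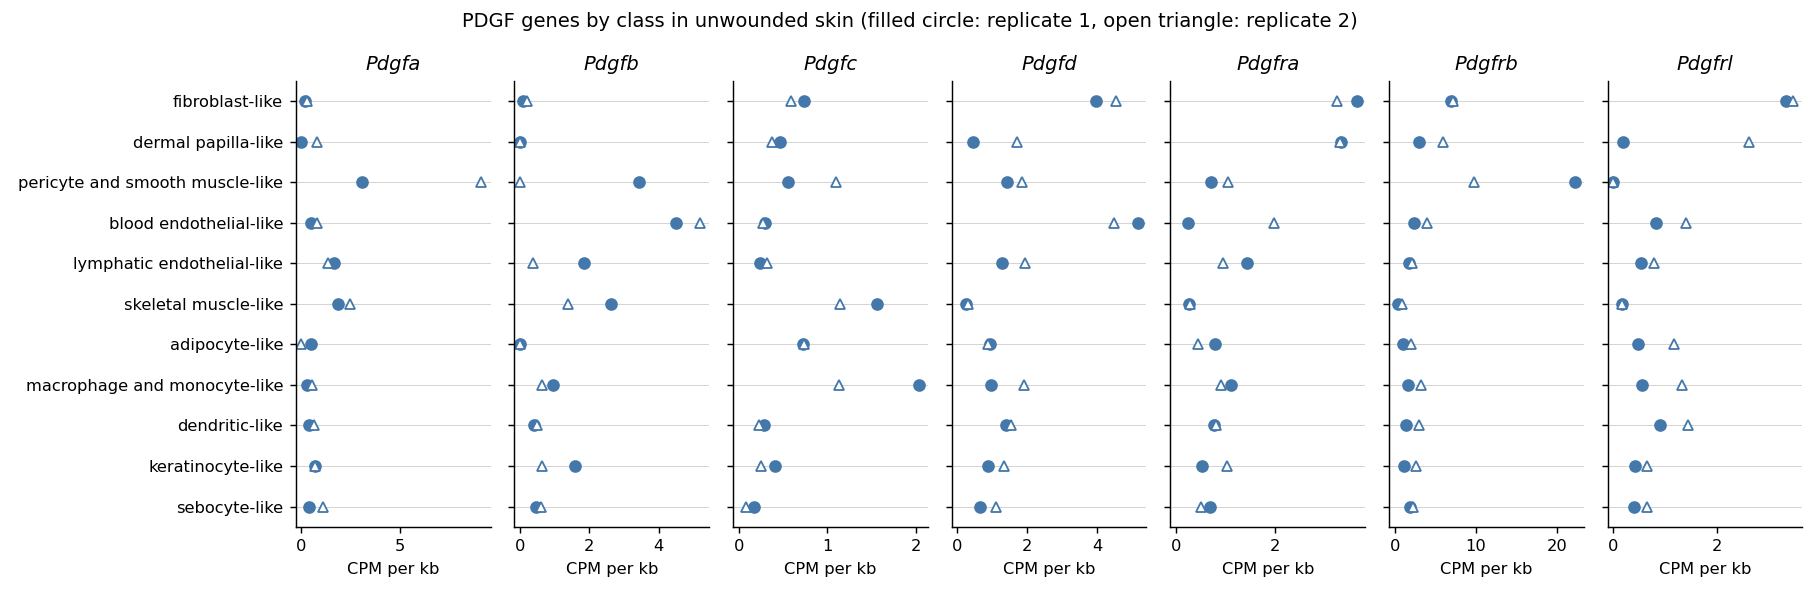
Level of each PDGF gene in unwounded skin, as CPM per kb of gene (horizontal axes, a separate scale for each gene), by class of nuclei (rows); the filled circle is replicate 1 and the open triangle replicate 2. Pdgfb is farthest right in blood endothelial-like nuclei, Pdgfc in macrophage and muscle-like nuclei, Pdgfrb in pericyte and smooth muscle-like nuclei, and Pdgfrl in fibroblast-like nuclei.

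Within the fibroblast-like nuclei of unwounded skin, 6 clusters differed in their PDGF genes. The cluster led by Spag17, Fgf9 and Gpc3 had the highest Pdgfra, 357 and 242 CPM, and low Pdgfrb, 145 and 194 CPM. A cluster led by Nat8f3, Slc17a9 and Olfml1 had the reverse, with Pdgfrb at 396 and 354 CPM and Pdgfra at 146 and 126 CPM. Pdgfrl was highest in the cluster led by Lgr5, Plcxd3 and C7, at 276 and 340 CPM. It was lowest in the small cluster led by Sntg1, Smpd3 and Ebf2, at 54.5 and 87.9 CPM, where Pdgfd was high, at 1217 and 1336 CPM. The cluster led by Ccbe1 and Cadps had the lowest Pdgfd, 549 and 614 CPM. These clusters were built from the same nuclei without the PDGF genes themselves, so the levels are descriptions and carry no test.

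Across 20 levels (10 classes in 2 unwounded mice), the genes whose log2 levels followed each receptor most closely were Gpc6 for Pdgfra (Pearson's r = 0.90, then Dpp4, Ccbe1 and Pi15), Nova1 for Pdgfrb (r = 0.92, then Dnajc1, Sparc and Cdh18) and Rgs6 for Pdgfrl (r = 0.94, then Opcml, Dap and Spryd3). For Pdgfd they were Heg1 (r = 0.90), Fstl1, Abcc4 and Ebf2. Likeness was lower for Pdgfb (Gbp4, r = 0.85), Pdgfa (Idh3b, r = 0.84) and Pdgfc (Rhoq, r = 0.77). Levels of 1 mouse share a library and its depth, so these values describe the pattern only. Only classes with at least 50 nuclei in each mouse were used. Pericyte and smooth muscle-like nuclei (32 and 23), where Pdgfrb was highest, were thus left out. Sparc, which encodes a matrix protein that can bind PDGF, was the only gene named in these sets of 4 that was also on the pathway lists.

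Wounded and unwounded skin were then compared on counts summed over all kept nuclei of a mouse. In this comparison fewer cells of a type and less RNA per cell cannot be told apart. With edgeR's quasi-likelihood test, 84.4% of the 20915 genes tested passed an adjusted p of 0.05 in either direction, 47% of the genes upward and 37.4% downward, so a call by itself says little about any member. Against that background 6 of the 7 PDGF genes had a negative difference that passed and none a positive one. For Pdgfc, Pdgfd, Pdgfra and Pdgfrl the call held under all 14 alternatives, whereas for Pdgfa and Pdgfrb it depended on the processing. Over every gene tested the median log2 difference was 0.39. It was 0.62 with RLE in place of TMM scaling and -0.54 after length-expected counts were subtracted. Values are best read relative to the median of their own setting.

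Pdgfd showed the largest fitted difference. It was counted at 594 and 636 CPM in unwounded skin (4915 and 4112 UMIs) and at 172 and 160 CPM in wounded skin (203 and 217 UMIs). Both wounded libraries lay far below both unwounded ones, and the log2 fold change was -2.68 ± 0.15 (SE; edgeR, adjusted p = 1.92e-09). The wounded levels were 1.48 and 1.5 times the length-expected level, within the range of the silent genes, so the size of the fall is uncertain. After subtraction of the length-expected counts the log2 fold change was -2.70, where the median of all genes tested was -0.54 in place of 0.39.

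Pdgfc was counted at 132 and 97.8 CPM in unwounded and 86.2 and 73.1 CPM in wounded skin. The groups did not overlap, with a log2 fold change of -1.32 ± 0.17 (edgeR, adjusted p = 6.85e-06). In wounded skin Pdgfc was at 0.883 and 0.810 times its length-expected level, so that no Pdgfc signal above this density was detectable. The size of the fall therefore cannot be read from these libraries.

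Pdgfa was counted at 11.4 and 14.1 CPM in unwounded and 12.7 and 10.3 CPM in wounded skin, so the groups overlapped. Its fitted log2 fold change of -0.93 ± 0.33 passed the threshold (edgeR, adjusted p = 0.0177). The call was lost without wounded replicate 1 (-0.89, adjusted p = 0.0878), without wounded replicate 2 (-0.59, adjusted p = 0.251) and with RLE scaling (-0.70, adjusted p = 0.0633). The 15 and 14 UMIs of wounded skin were 1.08 and 0.952 times the length-expected level.

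Pdgfb did not pass the test. It was counted at 10.5 and 8.05 CPM in unwounded and 21.1 and 13.3 CPM in wounded skin, from 25 and 18 UMIs in the latter. The log2 fold change was 0.09 ± 0.33 (edgeR, adjusted p = 0.811), and wounded levels were 2.01 and 1.37 times the length-expected level.

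Of the receptor genes, Pdgfra fell, and Pdgfrb stood farthest above the length-expected level. Pdgfra was counted at 119 and 106 CPM in unwounded and 42.3 and 51.7 CPM in wounded skin. The groups were well apart, with a log2 fold change of -2.04 ± 0.17 (edgeR, adjusted p = 9.11e-08). The wounded counts of 50 and 70 UMIs were 1.67 and 2.21 times the length-expected level, within the range of the silent genes. After subtraction of that level the difference was -1.52, against a median of -0.54 for all genes tested, so its size is uncertain.

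Pdgfrb was counted at 199 and 209 CPM in unwounded and at 220 and 289 CPM in wounded skin, higher in both wounded libraries. The wounded levels, from 260 and 392 UMIs, were 10.0 and 14.3 times the length-expected level. Of 20903 genes, 177 or 0.847% exceeded 10 times in both wounded libraries, and 19.7% exceeded 2 times. No other PDGF gene exceeded 3 times in either. The cut-off of 10 lies at the level of Pdgfrb itself in wounded replicate 1, so that share depends on where it is set. The fitted log2 fold change was nevertheless negative, -0.46 ± 0.15 (edgeR, adjusted p = 0.0121), because TMM scaling multiplied the library sizes by 0.782 and 0.732 in unwounded and 1.33 and 1.31 in wounded skin. Its sign depended on the processing: it was 0.98 after length-expected counts were subtracted (adjusted p = 0.00563), 0.79 over barcodes with a Malat1 UMI (adjusted p = 0.000475), 0.17 after thinning (adjusted p = 0.310) and -1.52 for nuclei with at least 400 genes (adjusted p = 5.54e-18), all by edgeR. Without wounded replicate 1 it was -0.09 (adjusted p = 0.678). No direction for Pdgfrb in the whole skin is therefore given.

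Pdgfrl was counted at 145 and 148 CPM in unwounded and 86.2 and 88.6 CPM in wounded skin, with the mice of each group close together. The log2 fold change was -1.53 ± 0.15 (edgeR, adjusted p = 4.01e-07). The wounded levels were 2.43 and 2.70 times the length-expected level, within the range of the silent genes. After subtraction of that level the difference was -0.66 (edgeR, adjusted p = 0.0246), close to the median of -0.54 for all genes tested in that setting. Relative to all genes, no clear fall of Pdgfrl was therefore left after subtraction.

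**Figure D2:**
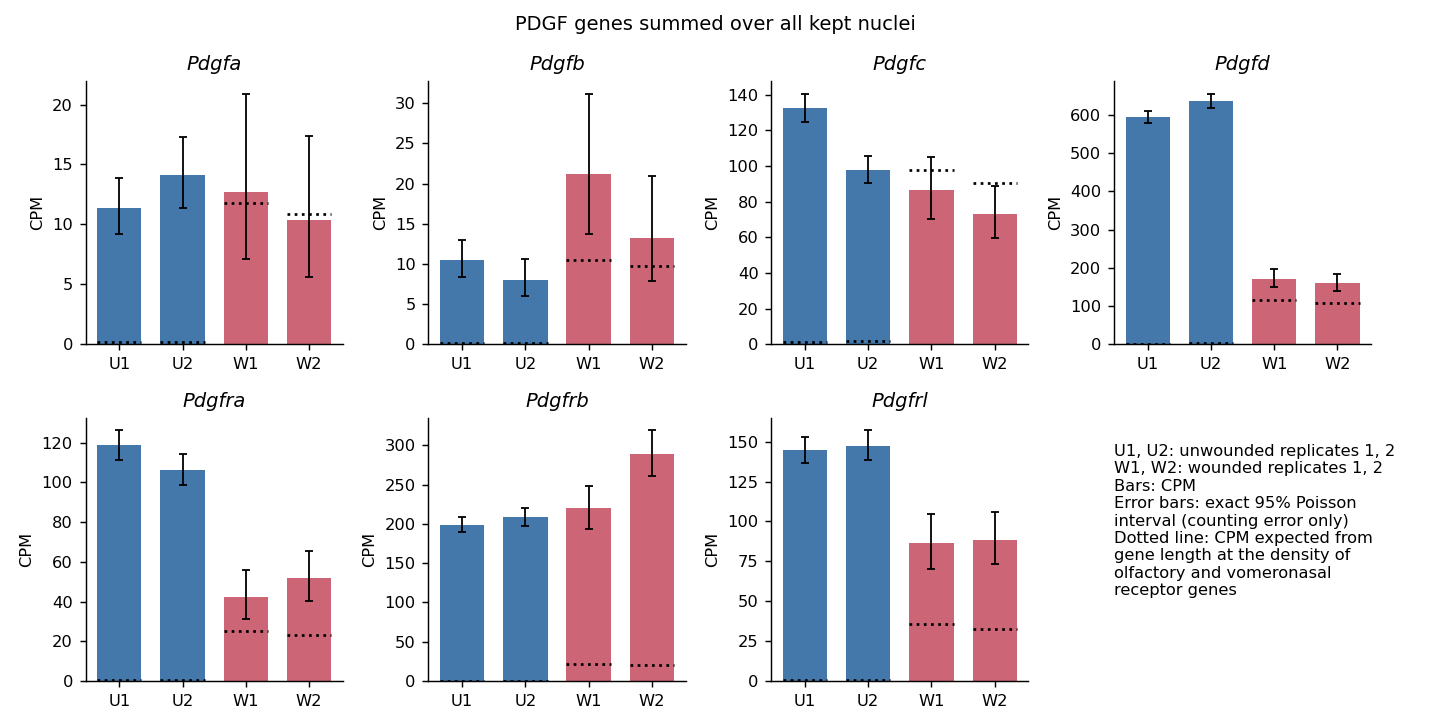
CPM of each PDGF gene summed over all kept nuclei (vertical axes from 0, a separate scale for each gene) in unwounded (U1, U2) and wounded (W1, W2) libraries; error bars are exact 95% Poisson intervals and the dotted line is the length-expected CPM. Pdgfa, Pdgfb and Pdgfc of wounded skin sit near the dotted line, and Pdgfrb sits 10.0 and 14.3 times above it.

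The same comparison was made within fibroblast-like nuclei, of which there were 3548 and 3344 in unwounded and 352 and 660 in wounded skin. In the wounded mice they formed a single cluster in which 7 of 10 fibroblast markers were at least 2-fold above the median cluster, led by Cntfr, Cyp7b1, Nat8f7, Sparc and Tnfaip6; Pdgfrb was among its 10 leading genes although the PDGF genes were left out of the genes clustered on. All 10 fibroblast markers were detected in every library, but their summed level reached 17728 and 17095 CPM in unwounded nuclei of the class and only 2738 and 2551 CPM in wounded ones. Summed pericyte and smooth muscle markers there were 100.2 and 104 CPM in unwounded and 246 and 345 CPM in wounded skin (length-expected 139 and 172), with Rgs5 at 0 UMIs in wounded replicate 1 and Tagln at 0 in replicate 2. Summed keratinocyte markers were 145 and 239 CPM in unwounded and 546 and 928 CPM in wounded nuclei. The part of these differences in the results below was not tested.

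Pdgfrb rose within fibroblast-like nuclei, and it was the only PDGF gene that did. It was counted at 277 and 289 CPM in the unwounded and at 1331 and 1133 CPM in the wounded mice, from 195 and 266 UMIs in the latter. The means were 283 ± 8.44 and 1232 ± 140 CPM (SD, n = 2 mice), and both wounded mice lay above both unwounded mice. The log2 fold change was 1.65 ± 0.20 (edgeR, adjusted p = 4.46e-10), where 59.9% of 13095 genes tested passed in either direction and 27.6% rose. The wounded levels were 109 and 74.8 times the length-expected level. The rise held its sign and its call under all 9 alternatives run in this class. It ranged from 0.58 with nuclei assigned to classes one by one to 2.60 at Leiden resolution 2. At that resolution only a single unwounded cluster of 204 and 186 nuclei was named fibroblast-like, so 2.60 is set against a small part of the unwounded class. The alternatives on barcodes and depth, such as at least 400 genes per nucleus (-1.52 for Pdgfrb over all nuclei), were not run within this class.

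Pdgfra did not follow. It was counted at 168 and 149 CPM in unwounded and 143 and 111 CPM in wounded fibroblast-like nuclei, from 21 and 26 UMIs in the latter, and the groups lay close. The fitted log2 fold change was -0.82 ± 0.25 (edgeR, adjusted p = 0.00479). The wounded levels were 10.2 and 6.35 times the length-expected level, so the alpha receptor transcript was still seen above this density in these nuclei. The call was lost after subtraction of the length-expected counts (-0.15, adjusted p = 0.707), at Leiden resolution 2 (-0.38, adjusted p = 0.267), without unwounded replicate 1 (-0.62, adjusted p = 0.106) and without wounded replicate 2 (-0.45, adjusted p = 0.275). With nuclei assigned one by one the fall was larger, -1.73 (edgeR, adjusted p = 3.67e-05).

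The balance of the receptor transcripts differed accordingly. It compares genes within a library and so does not depend on scaling, but it is not corrected for length-expected counts. Fibroblast-like nuclei held 1.65 and 1.94 Pdgfrb UMIs for each Pdgfra UMI in unwounded skin and 9.29 and 10.2 in wounded skin. Over all nuclei unwounded skin had ratios of 1.68 and 1.96, and wounded skin 5.20 and 5.6. In the unnamed nuclei of wounded skin it was 2.30 and 2.46. The mice of each group were close to each other and the groups did not overlap, which with 2 mice against 2 is a description. Over all wounded nuclei the length-expected counts were 29.9 of 50 and 31.6 of 70 Pdgfra UMIs. For Pdgfrb they were 26.0 of 260 and 27.5 of 392 UMIs, so the ratios over all wounded nuclei are not ratios of skin transcripts alone. In wounded fibroblast-like nuclei they were 2.06 of 21 and 4.09 of 26 Pdgfra UMIs, and 1.79 of 195 and 3.56 of 266 Pdgfrb UMIs.

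The share of nuclei with a Pdgfrb UMI was compared at a common depth, each nucleus being thinned to 250 UMIs. Among fibroblast-like nuclei unwounded skin gave 7.24% (95% Wilson interval 6.44% to 8.14%) and 8.07% (7.20% to 9.05%), and wounded skin gave 29.1% (24.5% to 34.1%) and 23.8% (20.5% to 27.4%) after 15 and 84 shallower wounded nuclei were left out. Without thinning the shares were 28.1% and 21.7% in unwounded and 35.5% and 30.3% in wounded nuclei, at median depths of 1097, 707, 365 and 312 UMIs. Keratinocyte-like nuclei, which should lack the gene, gave thinned shares of 1.43% and 2.96% in unwounded and 0.8% and 5.92% in wounded skin, at median depths of 966, 493, 325.5 and 291 UMIs. The thinned share of fibroblast-like nuclei with a Pdgfra UMI was 3.52% and 3.14% before and 4.15% and 3.12% after wounding, in different mice, with overlapping intervals.

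Pdgfrl fell in fibroblast-like nuclei, from 215 and 225 CPM to 34.1 and 115 CPM (5 and 27 UMIs). The wounded mice differed from each other by more than the unwounded mice did, and both lay below them. The log2 fold change was -1.88 ± 0.29 (edgeR, adjusted p = 1.90e-07), and it was -1.18 without wounded replicate 1, -2.99 without wounded replicate 2 and -0.90 at Leiden resolution 2 (adjusted p = 0.0160). The wounded levels were 1.72 and 4.69 times the length-expected level.

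Among the ligands, Pdgfd fell most in fibroblast-like nuclei. It was counted at 832 and 952 CPM in unwounded nuclei (4079 and 2964 UMIs) and at 150 and 128 CPM in wounded ones (22 and 30 UMIs). The log2 fold change was -3.17 ± 0.25 (edgeR, adjusted p = 2.45e-15), and the call held under all 9 alternatives, from -3.41 to -2.56. The wounded levels were 2.33 and 1.60 times the length-expected level. For each Pdgfrb UMI these nuclei held 3.0 and 3.29 Pdgfd UMIs in unwounded skin and 0.113 and 0.113 in wounded skin. The thinned share of nuclei with a Pdgfd UMI reached 16.7% and 19.8% in unwounded skin, against 4.15% and 1.91% in wounded skin.

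The other ligands gave weak or no calls in this class. Pdgfc was counted at 131 and 106 CPM in unwounded and 95.6 and 97.9 CPM in wounded nuclei, with a log2 fold change of -0.75 ± 0.27 (edgeR, adjusted p = 0.0156). That call was lost without any single library, with adjusted p from 0.0511 to 0.237, and the wounded levels were 1.75 and 1.45 times the length-expected level. Pdgfb was at 1.43 and 3.86 CPM in unwounded and 6.83 and 12.8 CPM in wounded nuclei, from 1 and 3 UMIs in the latter (1.60 ± 0.95, edgeR, adjusted p = 0.140), which is 1.17 and 1.76 times the length-expected level. Pdgfa had 0 and 1 UMIs in wounded fibroblast-like nuclei, too few to be tested.

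**Figure D3:**
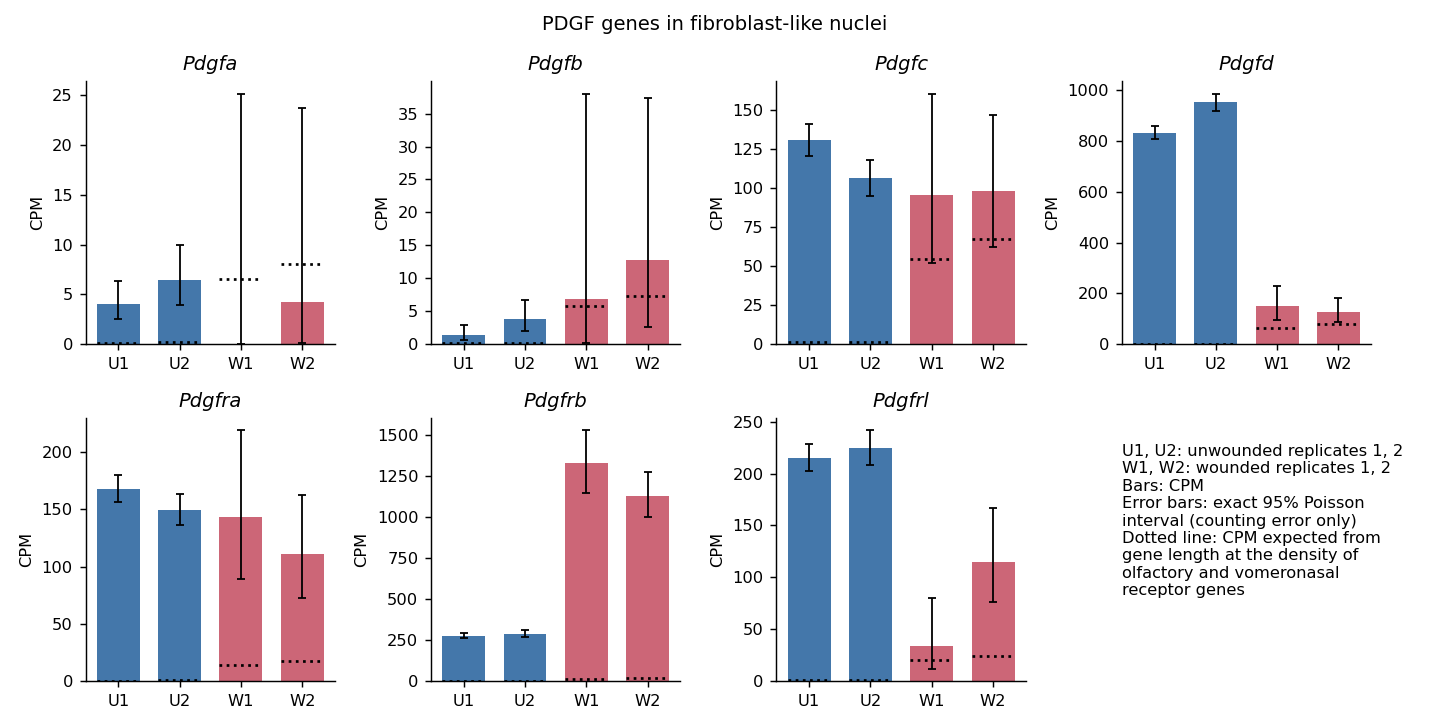
CPM of each PDGF gene in fibroblast-like nuclei (vertical axes from 0, a separate scale for each gene) of unwounded (U1, U2) and wounded (W1, W2) mice, with exact 95% Poisson intervals and the length-expected CPM as a dotted line. Pdgfrb is higher in both wounded mice, Pdgfd and Pdgfrl are lower in both, and the intervals of Pdgfra overlap between wounded and unwounded mice.

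**Figure D4:**
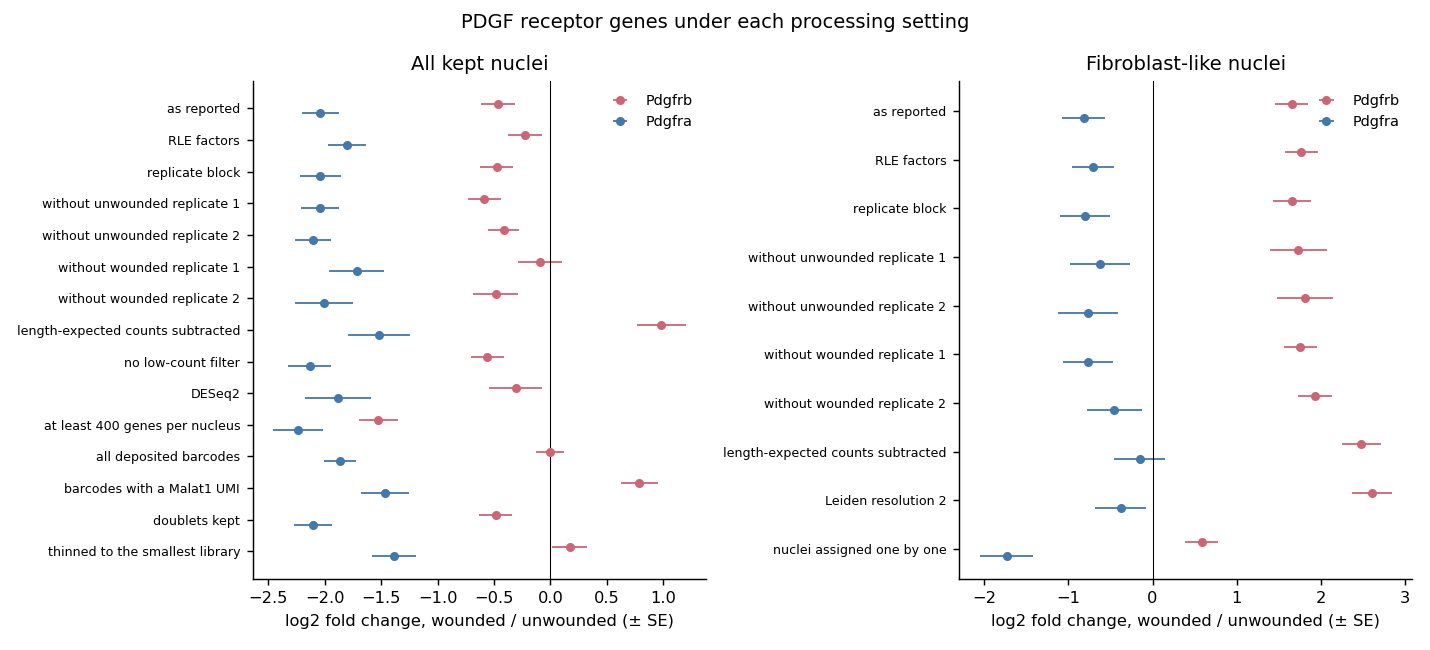
Log2 fold change (± SE, horizontal axes) of Pdgfrb and Pdgfra between wounded and unwounded skin under each processing setting (rows), over all kept nuclei (left) and in fibroblast-like nuclei (right). Over all nuclei Pdgfrb lies on both sides of 0, from -1.52 to 0.98. In fibroblast-like nuclei it lies above 0 in every setting run there, which did not include at least 400 genes per nucleus.

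Only 2 other classes had enough nuclei in all 4 libraries. In keratinocyte-like nuclei (279, 541, 144 and 354), where 49% of 5454 genes tested passed in edgeR (29% upward, 20% downward), Pdgfd fell by 1.19 on the log2 scale (SE 0.47, adjusted p = 0.0456), from 186 and 283 CPM to 37.2 and 112 CPM, or 0.435 and 1.20 times the length-expected level. That call was lost without unwounded replicate 2 (-0.86, adjusted p = 0.0924), without wounded replicate 1 (-0.70, adjusted p = 0.306) and at Leiden resolution 0.5 (-1.08, adjusted p = 0.0764). Pdgfrb had 45.1 and 107 CPM in unwounded and 55.8 and 225 CPM in wounded nuclei, so the groups overlapped, and did not pass (1.34 ± 0.55, edgeR, adjusted p = 0.0550). It passed without unwounded replicate 2 (2.10, adjusted p = 0.000120) and without wounded replicate 1 (1.92, adjusted p = 0.000244), and was -0.27 without wounded replicate 2 (adjusted p = 0.866). Its 26 UMIs in wounded replicate 2 were 12.6 times the length-expected level, against 3 UMIs and 3.44 times in replicate 1. Summed fibroblast markers in these wounded nuclei were 875 and 1054 CPM, with Col6a3, Dpt, Lum and Col1a1 at 0 UMIs in replicate 1; their part in the Pdgfrb count was not tested.

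In skeletal muscle-like nuclei (212, 251, 22 and 59), where 19.6% of 3311 genes tested passed in edgeR (9.76% upward, 9.88% downward), Pdgfc and Pdgfd, the only members tested, did not, although both had an unadjusted p under 0.05. Pdgfc had 278 and 204 CPM in unwounded nuclei, 0 UMIs in wounded replicate 1 and 90.9 CPM from 2 UMIs in wounded replicate 2 (-2.07 ± 0.89, edgeR, adjusted p = 0.104). In wounded replicate 1 3 counts would be 320 CPM, and the Poisson interval reaches 394 CPM. Pdgfd had 53.2 and 63.6 CPM in unwounded and 427 and 136 CPM in wounded nuclei, from 4 and 3 UMIs (1.82 ± 0.72, edgeR, adjusted p = 0.0809). These counts are too few to read a direction from. In the test of the difference between classes, given among the additional observations, 10.1% of genes passed between fibroblast-like and keratinocyte-like nuclei and 9.6% between fibroblast-like and muscle-like nuclei.

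The other genes of the pathway were taken from 5 lists and read against the same all-gene background. Over all nuclei each of the 16 genes of receptor-proximal signalling fell, where 37.4% of all genes tested fell. Their median log2 fold change was -2.01 against 0.39 for all genes tested. After subtraction of the length-expected counts 14 of the 16 fell, with a median of -2.71 against -0.54. Pik3r1, the regulatory subunit of the PI3-kinase that docks on activated PDGF receptors, went from 544 and 525 CPM to 67.6 and 96.7 CPM, 1.40 and 2.17 times the length-expected level (-3.48 ± 0.17, edgeR, adjusted p = 9.69e-10). Plcg1, which encodes phospholipase C gamma 1, fell by 3.43, Stat5b by 2.82 and Rasa1, a Ras inactivator, by 2.52 on the log2 scale. The wounded levels of Plcg1, Rasa1 and Nck2 were below the length-expected level in both mice, so the size of those falls is not defined. Others of the list lay near that level, such as Ptpn11 at 1.09 and 1.07 times and Src at 1.06 and 1.17 times. The size of their falls, and of the list median, is therefore uncertain. In fibroblast-like nuclei 13 of the 16 fell and none rose, with a median of -1.54 against -0.37 for all genes tested, of which 32.3% fell. The count that fell there was 9 of 16 after subtraction and 6 of 13 tested at Leiden resolution 2.

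Of the 9 genes for ligand processing and extracellular binding, 6 fell and 3 rose over all nuclei, with a median of -0.86. Of all genes tested 37.4% fell and 47% rose. Sparc fell from 559 and 660 CPM to 98.9 and 114 CPM, 6.27 and 7.80 times the length-expected level (-3.31 ± 0.17, edgeR, adjusted p = 1.07e-09), and Lrp1, a large endocytic receptor that associates with the beta receptor, fell by 2.17. Pcsk6, a proprotein convertase, rose by 1.10, to 1.52 and 1.36 times its length-expected level. In fibroblast-like nuclei 3 rose, 3 fell and 3 did not pass, near the shares of all genes tested there (27.6% rose and 32.3% fell). Sparc was still at 628 and 490 CPM there, 71.4 and 45.0 times the length-expected level, with a log2 fold change of -1.07 ± 0.21 (edgeR, adjusted p = 2.28e-05) that was called in 7 of 9 alternatives. Pcsk5, named after its values were seen, rose from 243 and 228 to 1167 and 1103 CPM in these nuclei (1.80 ± 0.19, adjusted p = 3.52e-11), at 9.39 and 7.17 times the length-expected level.

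Ptprj showed the largest rise of the pathway genes tested in fibroblast-like nuclei, and over all nuclei it was next to Flt3. It encodes a receptor-type tyrosine phosphatase that can remove phosphate from the PDGF beta receptor. Of the 10 genes for signal attenuation and feedback it alone rose over all nuclei, while 7 fell and 2 did not pass (median -1.07). Of all genes tested 47% rose and 37.4% fell. Ptprj was counted at 205 and 251 CPM in unwounded and 1466 and 1491 CPM in wounded skin, 17.7 and 19.4 times its length-expected level (1.91 ± 0.15, edgeR, adjusted p = 6.58e-08). In fibroblast-like nuclei it went from 77.9 and 96.1 CPM to 3714 and 2193 CPM, 80.3 and 38.3 times the length-expected level (4.62 ± 0.25, edgeR, adjusted p = 1.10e-21). The rise passed the threshold under all 14 alternatives over all nuclei, from 1.53 to 3.41, and under all 9 in fibroblast-like nuclei, from 2.47 to 5.64. Cblb, a ubiquitin ligase that marks activated receptors for breakdown, fell by 2.42 over all nuclei and by 1.07 in fibroblast-like nuclei. Ptpn12 fell by 1.09 over all nuclei and rose by 0.63 in fibroblast-like nuclei, a rise that did not keep its sign under every alternative (-0.50 to 1.33). In fibroblast-like nuclei 2 genes of this list rose, 2 fell and 4 of the 8 tested did not pass. These counts lie near the shares of all genes tested there (27.6% rose and 32.3% fell).

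Among 8 early genes that growth factors induce, 7 could be tested over all nuclei. Ier3 rose, Myc and Ier2 fell and 4 did not pass (median -0.31), where 47% of all genes tested rose and 37.4% fell. The fall of Ier2 was called in 6 of the 10 alternatives that tested it. Ier3 went from 5.93 and 5.73 CPM to 16.9 and 25.8 CPM, 24.8 and 41.0 times the length-expected level of this short gene (1.10 ± 0.33, edgeR, adjusted p = 0.00708). In fibroblast-like nuclei Ier3 (3.03 ± 0.57, adjusted p = 1.02e-05) and Junb (1.94 ± 0.53, adjusted p = 0.00155, named after its values were seen) rose in edgeR. None fell and 3 of the 5 tested did not pass, where 27.6% of all genes tested rose and 32.3% fell. Of the 3 other class III receptor tyrosine kinases, Flt3 rose by 2.70 over all nuclei, but only to 2.78 and 2.35 times its length-expected level, Csf1r fell by 0.85, a call that held in 9 of 14 alternatives, and Kit did not pass (0.36, edgeR, adjusted p = 0.175). These 3 also serve as markers of immune cell classes.

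**Figure D5:**
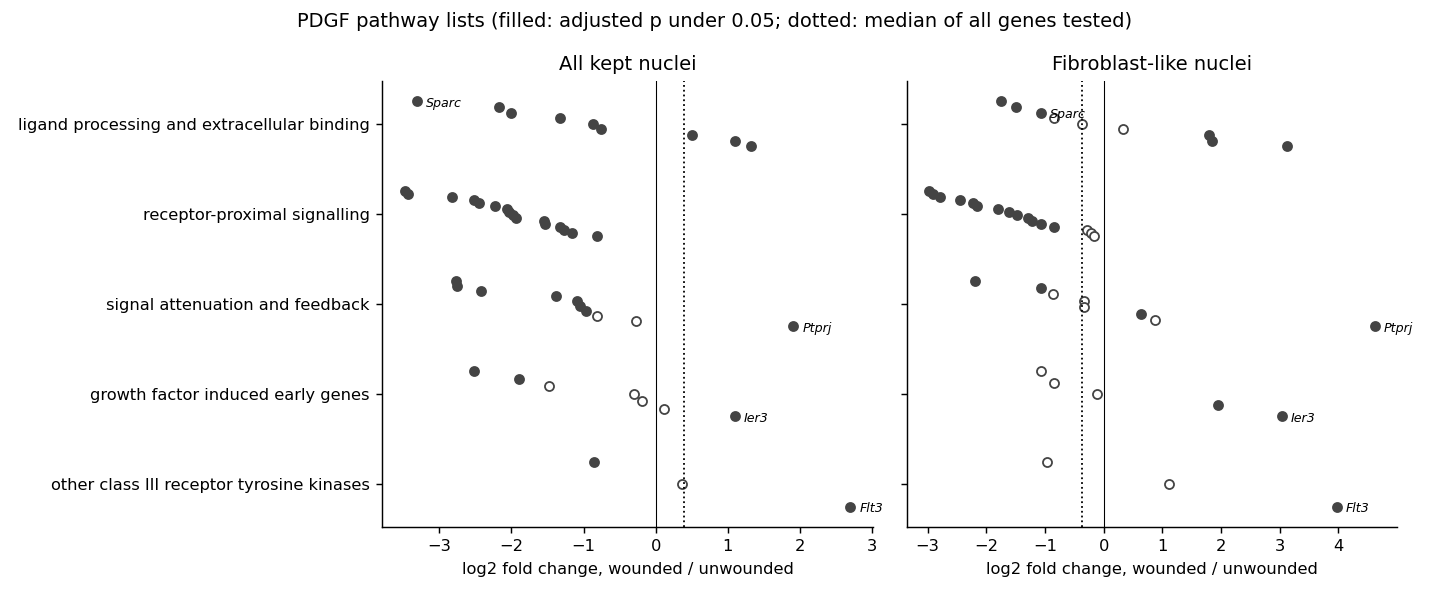
Log2 fold change between wounded and unwounded skin (horizontal axes) of each tested gene of the 5 pathway lists (rows), over all kept nuclei (left) and in fibroblast-like nuclei (right); filled points passed an adjusted p of 0.05 in edgeR and the dotted line is the median of all genes tested. All 16 receptor-proximal genes lie below 0 on the left, and Ptprj lies farthest right of the attenuation list in both panels.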

How the data were processed

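The authors deposited raw UMI counts per gene and barcode, made with Cell Ranger 5.0.1 on GRCm38 per the submitters' processing notes. The labels name the 3' v3.1 kit of 10x Genomics. Intron counting, the annotation release, the calling of barcodes and the use of strand are not stated there. Barcodes needed 200 detected genes, with no more than 5% of counts mitochondrial. Scrublet (scanpy 1.11.5) marked 0 doublets in each library, so the nuclei of highest score, 0.8% per 1000 barcodes, were removed. Lengths of 32235 of 32285 genes came from GENCODE vM21.

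Counts were summed per mouse, filtered with filterByExpr, scaled with TMM and fitted with edgeR 4.0.16 (R 4.3.3), adjusted by Benjamini-Hochberg over all genes tested with a threshold of 0.05. Groups were clustered apart (2000 variable genes without the PDGF genes, 30 components, 15 neighbours, Leiden resolution 1), since joint clusters split by group. A cluster was named with at least 3 markers and 40% of a list 2-fold above the median cluster, 20 percentage points ahead of any other list. It stayed unnamed where another list had more markers among its 10 leading genes. The same held where the cluster was shallow and none of its own markers was among those genes. This scoring, and the test of differences between classes, were chosen after the clusters were seen. Members, lists and alternatives were chosen with earlier results of these data known. Named were all members, up to 4 genes of smallest p in each pathway list, and the 4 genes of most similar pattern. Gene spans overlap antisense genes at Pdgfa, Pdgfb, Pdgfc and Pdgfra and Ddi1 at Pdgfd. DESeq2 1.42.0 was an alternative. The edgeR scripts were tested on simulated data. Intervals cover counting error only.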

Additional observations from a re-analysis of the deposited data

Results flagged for a closer look

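A test of the difference between classes, fitted with edgeR on the class sums of the same 4 mice with each library as a block and added after the data were seen, gave 4 results in which the difference between wounded and unwounded skin was not the same in fibroblast-like nuclei and another class. Against keratinocyte-like nuclei, where 10.1% of 8552 genes passed, the log2 fold change of Pdgfd was lower in fibroblast-like nuclei by -1.62 ± 0.56 (adjusted p = 0.0398, edgeR). Pdgfrl differed by -2.92 ± 0.68 (adjusted p = 0.000548, edgeR): it fell in fibroblast-like nuclei, while keratinocyte-like nuclei held 27.1 and 41.7 CPM in unwounded and 149 and 43.2 CPM in wounded skin, the latter from 8 and 5 UMIs. For Pdgfrb the difference of 0.63 ± 0.43 did not pass (adjusted p = 0.443, edgeR), so its rise is not shown to be greater in fibroblast-like than in keratinocyte-like nuclei.

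Against skeletal muscle-like nuclei, where 9.6% of 8435 genes passed, Pdgfc differed by 3.0 ± 0.92 (adjusted p = 0.0168, edgeR) and Pdgfd by -3.29 ± 0.91 (adjusted p = 0.00561, edgeR). Both rest on 2 Pdgfc and 7 Pdgfd UMIs in all wounded muscle-like nuclei.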

How the results depend on the processing

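Over all nuclei Pdgfc, Pdgfd, Pdgfra and Pdgfrl kept direction and call under the alternatives run. After subtraction, however, Pdgfrl at -0.66 lay close to the median of all genes tested, -0.54. The Pdgfc value of -11.85 after subtraction reflects counts set to 0. With RLE scaling Pdgfa was -0.70 and Pdgfrb -0.23, and with DESeq2 -0.78 and -0.31, none of them called. Pdgfa was -0.51 with at least 400 genes per nucleus and 0.26 after thinning, uncalled. Pdgfrb was 0.98 after subtraction, 0.79 over barcodes with a Malat1 UMI and 0.17 after thinning, and -0.0019 over all deposited barcodes. Pdgfb, never called, was -0.0084 without the low-count filter, -0.12 over all barcodes, -0.15 over barcodes with a Malat1 UMI and -0.0058 with doublets kept. Leaving out single libraries gave -1.17 to -0.59 for Pdgfa, -0.085 to 0.58 for Pdgfb and -0.58 to -0.091 for Pdgfrb.

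In fibroblast-like nuclei single libraries left out gave -0.77 to -0.49 for Pdgfc and -0.77 to -0.45 for Pdgfra. At Leiden resolution 2 Pdgfc was -0.22, Pdgfra -0.38 and Pdgfrl -0.90 (still called), where the median of all genes tested was 0.13. There 6 of the 13 receptor-proximal genes tested fell, with a list median of -0.68. After subtraction Pdgfra was -0.15, where the median of all genes tested was -0.72. In that setting 9 of the 16 receptor-proximal genes fell, with a list median of -1.86. The unwounded fibroblast-like class held only 204 and 186 nuclei at resolution 2. At resolution 0.5 no fibroblast-like cluster was named in wounded skin. The alternatives on barcodes and depth were run over all nuclei only. In keratinocyte-like nuclei single libraries left out gave -0.38 to 0.86 for Pdgfc, -2.46 to -0.70 for Pdgfd and -0.27 to 2.10 for Pdgfrb. At resolution 0.5 Pdgfc was -0.30 and Pdgfd -1.08. Pdgfrb was called there after subtraction (1.97), at resolution 2 (1.00), with nuclei assigned one by one (2.38), without unwounded replicate 2 and without wounded replicate 1. Pdgfc in muscle-like nuclei was called with RLE scaling (-2.37) and one by one (-3.22). The one by one tests were chosen after seeing the data, as were the counts of the lists under alternatives. Genes called in fibroblast-like nuclei fell from 7846 to 3797 at resolution 2, 4707 after subtraction and 4817 without unwounded replicate 1. The cause of these changes was not tested.

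The sample titles give replicate numbers and state no pairing of the mice. The correlation of same-numbered deviations was 0.0586, which with 1 deviation per group cannot show whether they are paired. Among the PDGF genes the replicate block changed 1 call, Pdgfrb in keratinocyte-like nuclei, to 1.12 (adjusted p = 0.0397, edgeR). On the pathway lists it raised the early genes that fell over all nuclei from 2 to 3 and left the other counts as they were. With 2 mice a group, 1182709 and 1355002 UMIs in wounded skin (68.4% and 63.2% of them matched by gene length at the receptor-gene density), low members such as Pdgfa and Pdgfb are not resolved there.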
